A study of Mus musculus with 2 samples.

Results

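The genes described here are 35 genes of lysosomal acidification and digestion, taken by symbol from a fixed list among the 31053 genes of the count tables, and all 35 were found in both libraries. They comprise 16 genes of the vacuolar ATPase (V-ATPase), 7 cathepsins and 12 other lysosomal genes. The cells came from tumours of MC38, a colon carcinoma line of mouse origin, grown under the skin of mice, and droplet-based sequencing read the 3' ends of the transcripts of single cells. There was 1 library of control tumour and 1 library of tumour overexpressing UBD. UBD (FAT10) resembles ubiquitin and, once attached to a protein, sends it to the proteasome. The labels call both tissues a subcutaneous xenograft. Neither the labels nor the protocols used here give the host strain, the number and age of the mice, the overexpression construct or any use of clones or pools. With 1 library per group there was no replicate and no test, so every value describes these 2 libraries, and every interval is at the 95% level and covers counting error only.

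The V-ATPase is a rotary proton pump. Its membrane sector, V0, carries protons across the membrane, and its peripheral sector, V1, hydrolyses ATP. The pump acidifies lysosomes, in which cathepsins and other acid hydrolases digest proteins, glycans and lipids. Macrophages use this system to degrade what they take up. Osteoclasts, the bone-resorbing cells of the same lineage, place the pump in their outer membrane, at the ruffled border, and acidify the bone surface.

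Cells were sorted into 6 classes by the unique molecular identifiers (UMIs, 1 per captured transcript) of marker genes outside the list of 35. They are osteoclast-like cells (Acp5 together with Ctsk), macrophages (C1qa), monocytes (Ly6c2), dendritic cells (Flt3), T cells (Cd3e) and cells with Cdkn2a, which stand for the tumour. Of 13823 control and 13057 UBD cells kept, 9102 (65.8%) and 10899 (83.5%) met the rule of exactly 1 class. Levels are in CPM, a gene's UMIs scaled to a class total of 1000000 UMIs, and since 1 UMI stands for 1 transcript 3' end they were not divided by length. The osteoclast-like class held 92 control and 688 UBD cells, the macrophage class 1564 and 1701, the monocyte class 1846 and 150, the dendritic class 53 and 41, the T class 135 and 261, and the Cdkn2a class 5412 and 8058. The osteoclast-like label fits its other markers: Mmp9 was 4107 and 5742 CPM in the control and UBD libraries, Atp6v0d2 743 and 926 CPM, and Nfatc1 443 and 549 CPM. The macrophage marker C1qb was 27.1 and 16.8 CPM. Cells that also met the C1qa rule were left out, so this level may run low and does not check the label. Calcr, the calcitonin receptor of mature osteoclasts, was 8.40 and 6.43 CPM. The macrophage class had C1qb at 4449 and 4263 CPM. The Cdkn2a class is called by that gene, because the epithelial marker Epcam was at 0.0320 and 0.0448 CPM and Krt18 at 11.5 and 77.2 CPM, and Col3a1, a fibroblast marker, was at 568 and 580.4 CPM. The 150 monocytes of the UBD library carried T cell transcripts, with Cd3d at 302 CPM against 35.7 CPM in the control monocytes.

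Depth and RNA quality differed between the libraries. The median depth per class ran from 2396 UMIs (T class, UBD library) to 18023.5 UMIs (Cdkn2a class, control library). Gm42418, a transcript that overlaps ribosomal RNA, was higher in the control library in all 6 classes, from 2887 against 1319 CPM in osteoclast-like cells to 12040 against 2824 CPM in macrophages. Ubd itself, the targeted gene, stood at 0.392 CPM (control) and 1.17 CPM (UBD) in Cdkn2a cells. A construct without the mouse 3' end would not be counted, so this does not check the overexpression. The libraries shared 71 barcodes, of which 60 were kept in both. Free RNA was gauged with C1qb and C1qc. The larger of their levels, each taken relative to macrophages, was 1.09% and 1.81% in T cells and 0.407% and 0.254% in Cdkn2a cells. No cell in the T class could have C1qa above the macrophage threshold, so this gauge may run low.

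Osteoclast-like cells and macrophages divided the lysosomal genes between them. Most pump genes were far higher in osteoclast-like cells, most of the 7 cathepsins, with Lamp1, Lamp2 and Lgmn, far higher in macrophages, and the pattern appeared in each library by itself. Of the 16 V-ATPase genes, 11 (control) and 13 (UBD) were at least 1.5-fold higher in osteoclast-like cells, and 1 was at least 1.5-fold lower. Among all genes with at least 20 summed UMIs, 22.1% and 22.7% were higher by that measure and 32.0% and 27.3% lower. None of the 7 cathepsins was higher, and 6 and 5 were lower. Of the 12 other lysosomal genes 3 were higher and 6 lower in each library. The median log2 ratio was 1.36 and 1.78 for the V-ATPase, -2.32 and -2.19 for the cathepsins and -0.62 and -0.63 for the others, against -0.12 and -0.01 over all genes. In both libraries at once, 11 V-ATPase genes were higher, as were 14.7% of 10154 genes, and 5 cathepsins and 6 other lysosomal genes were lower, as were 21.0%. Of genes at 50 CPM or more, 26.3% and 24.5% were higher and 29.5% and 26.5% lower.

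**Figure D1:**
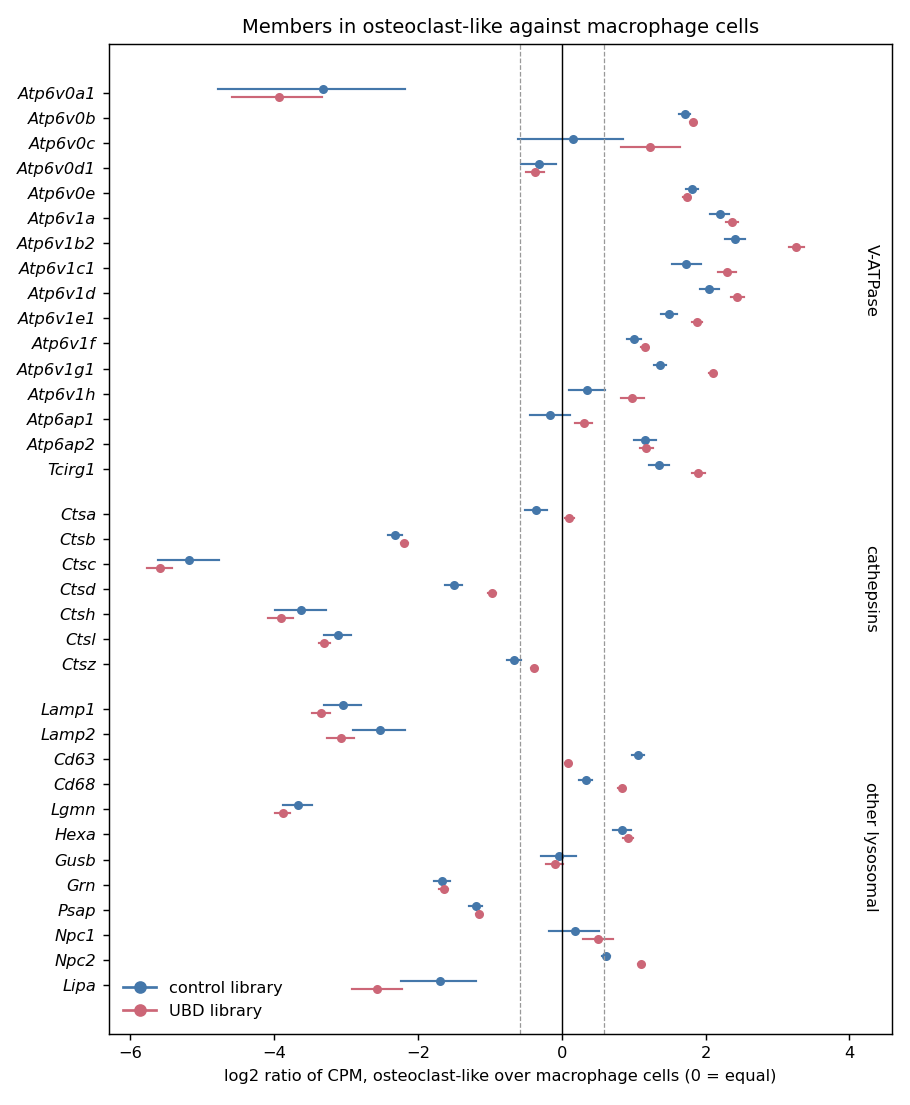
Log2 ratio of CPM in osteoclast-like over macrophage cells for each of the 35 genes, by list, in the control (blue) and UBD (red) libraries. Bars are 95% intervals for counting error and dashed lines mark 1.5-fold. The V-ATPase genes lie mostly right of 0, except Atp6v0a1 at -3.32 and -3.93, and the cathepsins mostly left, down to Ctsc at -5.18 and -5.59.

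In the peripheral sector of the pump, Atp6v1a and Atp6v1b2 encode the A and B subunits that form the catalytic ring. Atp6v1a was 591 CPM in control and 765 CPM in UBD osteoclast-like cells, against 129 and 148 CPM in macrophages. That was 4.58-fold (4.17 to 5.03) and 5.15-fold (4.87 to 5.45) higher. Atp6v1b2 (GRCm38 chromosome 8, 69088646 to 69113711, plus strand) was 599.6 and 773 CPM against 113 and 80.6 CPM, 5.30-fold (4.81 to 5.83) and 9.60-fold (8.93 to 10.3) higher. Both subunits of the ring were thus several times higher in osteoclast-like cells of either library. The stalk genes went the same way. Atp6v1d, the central rotor, was 4.15-fold and 5.43-fold higher, Atp6v1c1, of the C subunit, 3.32-fold and 4.92-fold, and Atp6v1e1, of a peripheral stalk, 2.82-fold and 3.68-fold. Atp6v1g1, the partner of the E subunit, was 1237 and 1794 CPM against 479.7 and 418 CPM. Atp6v1f, also part of the rotor, was 2.01-fold and 2.22-fold higher. Atp6v1h, which encodes the regulatory H subunit, was within 1.5-fold in the control library (1.28-fold, 1.07 to 1.51) and 1.98-fold higher (1.77 to 2.21) in the UBD library.

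In the membrane sector, the proteolipid gene Atp6v0b and the small subunit gene Atp6v0e had the highest levels of the pump genes in control osteoclast-like cells. In UBD cells Atp6v0b was first and Atp6v0e came after Atp6v1g1. Atp6v0b was 1736 and 2257 CPM there and 531 and 638 CPM in macrophages, and Atp6v0e 1401 and 1721 CPM against 399 and 516 CPM. These are 3.27-fold and 3.53-fold differences for Atp6v0b and 3.51-fold and 3.33-fold for Atp6v0e. Atp6v0c, the other proteolipid gene, was low everywhere, at 13.6 and 17.4 CPM in osteoclast-like cells and 12.2 and 7.43 CPM in macrophages. The annotation names 2 pseudogenes of it, so its reads may be shared or lost and its values are uncertain. Of the accessory genes, Atp6ap2 was 2.24-fold and 2.26-fold higher, and Atp6ap1 was within 1.5-fold in both libraries, at 84.6 and 127 CPM against 94.4 and 103 CPM.

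The a and d subunits of the membrane sector have alternative isoforms, whose shares differed between osteoclast-like cells and macrophages. Tcirg1 (GRCm38 chromosome 19, 3896050 to 3907133, minus strand) encodes the a3 subunit, which directs the pump to the ruffled border, and its loss in mice and people causes osteopetrosis. It was 421 and 435 CPM in osteoclast-like cells and 164 and 117 CPM in macrophages, 2.56-fold (2.32 to 2.82) and 3.73-fold (3.50 to 3.98) higher. Atp6v0a1, which encodes the a1 subunit, was 3.88 and 2.71 CPM against 38.8 and 41.2 CPM, 10.0-fold (4.54 to 27.5) and 15.2-fold (10.1 to 24.0) lower. Of the UMIs of the 4 a subunit genes, Tcirg1 took 95.04% (93.1 to 96.5) and 95.3% (94.6 to 95.9) in osteoclast-like cells and 70.5% and 65.7% in macrophages. Atp6v0a1 took 0.876% and 0.593% in the first and 16.6% and 23.2% in the second. The d subunit showed a sharper split of shares. Atp6v0d1, the common d1 gene, was within 1.5-fold, at 106 and 98.4 CPM in osteoclast-like cells and 133 and 128 CPM in macrophages. Atp6v0d2, the d2 gene known from osteoclasts and outside the 35, was 743 and 926 CPM against 2.30 and 9.84 CPM. It took 87.5% (85.6 to 89.3) and 90.4% (89.8 to 91.0) of the UMIs of the d pair in osteoclast-like cells, and 1.70% and 7.15% in macrophages. Atp6v0d2 is also among the markers by which the label was checked. In monocytes the shares were near those of macrophages, with Atp6v0d2 at 0.552% and 2.04%. In Cdkn2a cells Tcirg1 took 51.3% and 37.9% of its family, and its level there differed with depth.

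**Figure D2:**
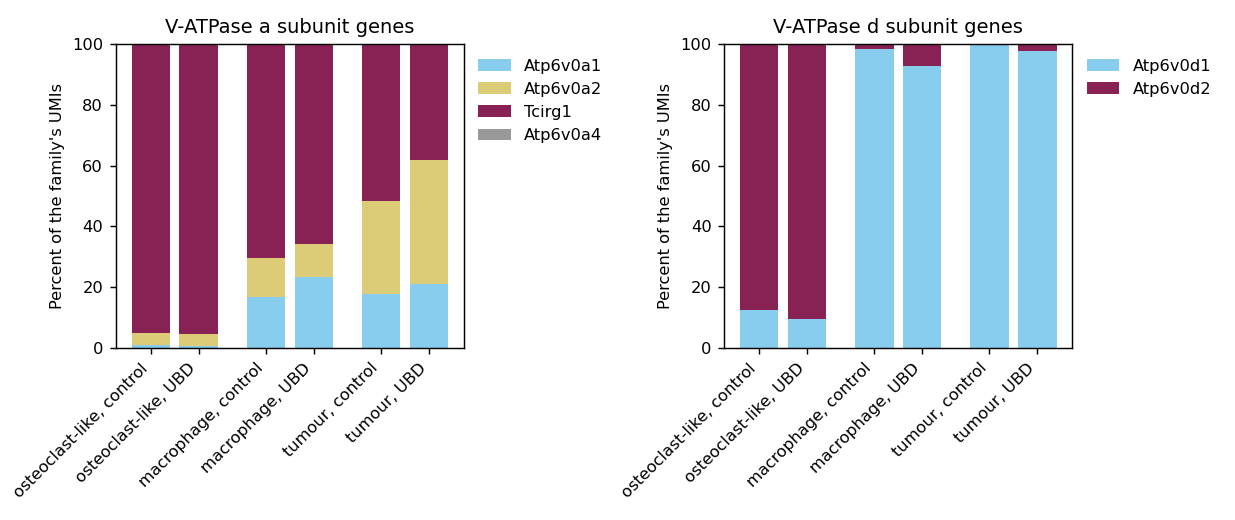
Share of the summed UMIs of the a subunit genes (left) and the d subunit genes (right) taken by each gene, for osteoclast-like, macrophage and Cdkn2a (tumour) cells in each library. Tcirg1 fills 95.04% and 95.3% of the a family and Atp6v0d2 87.5% and 90.4% of the d family in osteoclast-like cells, while Atp6v0d1 takes 98.3% and 92.8% of the d family in macrophages.

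Most of the 7 cathepsins were lower in osteoclast-like cells than in macrophages. Ctsc, the dipeptidyl peptidase that activates granule proteases, showed the largest difference, at 31.0 and 31.5 CPM against 1126 and 1519 CPM in macrophages, 36.3-fold (27.3 to 49.3) and 48.3-fold (42.9 to 54.6) lower. Ctsh, an aminopeptidase, was 44.6 and 32.3 CPM against 549 and 485 CPM. The cysteine protease gene Ctsl (GRCm38 chromosome 13, 64359337 to 64370890, minus strand) was 166 and 174 CPM against 1439.9 and 1717 CPM, 8.67-fold and 9.88-fold lower. Ctsb, another cysteine protease and the highest of the 7 in macrophages of both libraries, was 592 and 427 CPM against 2960.4 and 1948 CPM, 5.00-fold (4.68 to 5.35) and 4.57-fold (4.41 to 4.73) lower. Each of these 4 was several times lower in either library. Ctsd, the aspartic protease, was 2.83-fold and 1.95-fold lower. The carboxypeptidases differed least. Ctsz was 634 and 847 CPM against 1003 and 1108 CPM, 1.58-fold and 1.31-fold lower. Ctsa was within 1.5-fold in both, at 263 and 462 CPM against 338 and 429 CPM. Ctsk, the collagen-degrading cathepsin of osteoclasts, was one of the 2 genes that defined the class, so its 7817 and 9406 CPM are no finding. It is not among the 7, and their counts and shares leave it out.

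Other lysosomal genes fell on both sides. The membrane glycoproteins were low in osteoclast-like cells, with Lamp1 at 80.1 and 65.2 CPM against 661 and 666 CPM, 8.25-fold and 10.2-fold lower. Lamp2 was 44.6 and 29.5 CPM against 258 and 249 CPM. Lgmn, the asparaginyl protease that matures cathepsins, was 129 and 83.9 CPM against 1639 and 1239 CPM, 12.7-fold (11.1 to 14.7) and 14.8-fold (13.7 to 15.9) lower. Grn, the precursor of granulins, was 3.18-fold and 3.12-fold lower, and Psap, the precursor of the saposins, 2.30-fold and 2.23-fold. Lipa, the acid lipase, was 22.0 and 9.25 CPM against 70.9 and 54.7 CPM. Higher in osteoclast-like cells of both libraries were Hexa, a subunit of hexosaminidase, at 511 and 558 CPM against 286 and 295 CPM, and the cholesterol carrier gene Npc2, at 2453 and 2769 CPM against 1599 and 1296 CPM. The tetraspanin gene Cd63 was 2.09-fold higher in the control library (1.97 to 2.22) and 1.06-fold in the UBD library, with levels of 1076 and 1175 CPM in osteoclast-like cells and 514 and 1110.0 CPM in macrophages. Cd68, a scavenger receptor relative used as a macrophage marker, was 842 and 962 CPM in osteoclast-like cells and 669.5 and 540.4 CPM in macrophages. It was above 1.5-fold in the UBD library alone (1.78-fold against 1.26-fold). Gusb and Npc1 were within 1.5-fold in both libraries.

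Other genes of the same pathway, 67 in all and listed with earlier results of these data known, went either way. With Ctsk among them, 16 of 55 with enough UMIs were at least 1.5-fold higher in control osteoclast-like cells and 21 lower, and 19 of 55 higher and 19 lower in UBD, beside the 22.1% and 32.0% (control) and 22.7% and 27.3% (UBD) of all genes. Beside Ctsk and Atp6v0d2, the largest ratio in both libraries was that of Arsb, the sulfatase that degrades dermatan sulfate, at 255 and 234 CPM against 9.05 and 6.27 CPM. Clcn7, the chloride and proton exchanger of the ruffled border, was 101 and 76.5 CPM against 27.4 and 13.7 CPM, and Glb1, a galactosidase, 73.0 and 123 CPM against 20.7 and 25.6 CPM. Mitf, a transcription factor of osteoclasts and of lysosomal genes, was 77.5 and 82.7 CPM against 18.5 and 19.6 CPM. On the other side were Ctss, the cathepsin of antigen presentation, at 339 and 154 CPM against 2145 and 2122 CPM, and Scarb2, at 14.9 and 6.65 CPM against 60.7 and 57.1 CPM. The acid phosphatase gene Acp2 and the thioesterase gene Ppt1 were also lower in both, by 4.08-fold and 3.73-fold and by 4.06-fold and 3.94-fold. Of the transcription factor genes listed with Mitf, Tfe3 was 3.06-fold and 2.11-fold lower. Tfeb and Tfec were within 1.5-fold in both libraries. Of the 27 other hydrolases 6 and 9 were higher and 12 and 11 lower, and the 6 higher in the control library are a share near that of all genes.

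Sequence at the start sites was looked at because many pump genes went together. The letters CACGTG, the core of the site bound by TFEB, TFE3 and MITF, and TCACGTGA, the longer palindrome that holds it, were searched on both strands, which are the same for palindromes. The windows were RefSeq promoters on GRCm38.p6, from 250 bases before to 50 bases after the start, and 28 of the 35 genes had 1 or more. CACGTG was in a promoter of 9 of the 28 genes (32.1%) and of 8.09% of 27025 genes, and TCACGTGA in 5 (17.9%) and 1.12%. Among 52 other pathway genes with a promoter the share with CACGTG was 26.9%. The 9 genes were Atp6v0b, Atp6v0d1, Atp6v0e, Atp6v1a, Ctsa, Ctsd, Ctsl, Lamp1 and Lgmn. They included genes higher in osteoclast-like cells and genes higher in macrophages. Of the V-ATPase genes 4 of 12 had it, of the cathepsins 3 of 5, and of the other lysosomal genes 2 of 11. Shown first are 3 pump promoters of genes higher in osteoclast-like cells and then 2 of genes lower there, 5′ to 3′ on the gene's strand, with the matches in capitals. They lie at chr4:117887280-117887579 (Atp6v0b, minus strand), chr17:26676146-26676445 (Atp6v0e, plus), chr16:44139210-44139509 (Atp6v1a, minus), chr7:142387778-142388077 (Ctsd, minus) and chr8:13158911-13159210 (Lamp1, plus).
Atp6v0b: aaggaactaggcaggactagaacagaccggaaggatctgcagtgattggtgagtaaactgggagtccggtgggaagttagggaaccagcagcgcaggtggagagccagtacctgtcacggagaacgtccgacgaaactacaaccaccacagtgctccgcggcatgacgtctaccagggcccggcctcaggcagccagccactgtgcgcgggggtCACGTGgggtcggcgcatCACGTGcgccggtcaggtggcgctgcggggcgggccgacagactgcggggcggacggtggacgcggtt
Atp6v0e: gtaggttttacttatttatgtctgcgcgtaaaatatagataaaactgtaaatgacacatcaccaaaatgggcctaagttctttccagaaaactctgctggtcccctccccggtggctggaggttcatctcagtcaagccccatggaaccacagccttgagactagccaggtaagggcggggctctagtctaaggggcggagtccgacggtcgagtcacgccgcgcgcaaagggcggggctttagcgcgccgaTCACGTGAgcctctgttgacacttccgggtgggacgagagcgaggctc
Atp6v1a: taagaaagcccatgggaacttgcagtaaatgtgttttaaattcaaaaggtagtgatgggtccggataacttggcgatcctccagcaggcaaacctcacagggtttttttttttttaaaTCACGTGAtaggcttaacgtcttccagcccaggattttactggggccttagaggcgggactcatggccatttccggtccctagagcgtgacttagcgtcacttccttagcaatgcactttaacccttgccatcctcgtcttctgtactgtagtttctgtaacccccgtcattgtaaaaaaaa
Ctsd: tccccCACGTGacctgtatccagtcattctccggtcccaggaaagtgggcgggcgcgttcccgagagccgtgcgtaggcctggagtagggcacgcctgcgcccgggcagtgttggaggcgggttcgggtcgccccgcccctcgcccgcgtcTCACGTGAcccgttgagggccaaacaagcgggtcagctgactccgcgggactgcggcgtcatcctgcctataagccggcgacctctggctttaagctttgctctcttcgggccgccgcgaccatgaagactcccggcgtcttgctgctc
Lamp1: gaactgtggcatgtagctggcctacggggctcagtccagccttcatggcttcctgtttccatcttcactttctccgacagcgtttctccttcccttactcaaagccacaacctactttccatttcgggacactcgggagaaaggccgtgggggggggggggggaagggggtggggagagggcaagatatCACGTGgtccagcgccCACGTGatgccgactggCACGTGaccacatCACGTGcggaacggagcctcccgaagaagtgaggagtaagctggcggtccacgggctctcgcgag
Counted from the start site as 0, the CACGTG core began at 3 in Atp6v0e and at -131 in Atp6v1a, both within the longer palindrome. Atp6v0b had matches at -36 and -18, Ctsd at -245 and -98, and Lamp1 had 4, the first at -61. The 3 RefSeq promoters of Tcirg1 held none. A match is a string of letters in a window and says nothing of binding here.

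Summed over a list, the same split was visible cell by cell. V-ATPase genes made up a median of 0.784% of the UMIs of a control osteoclast-like cell (quartiles 0.577 and 1.01) and 1.14% of a UBD one (0.877 and 1.35). Macrophages had 0.306% (0.226 to 0.384) and 0.313% (0.249 to 0.380), so the quartile ranges did not overlap. Cathepsins made up 0.211% and 0.234% in osteoclast-like cells and 0.716% and 0.736% in macrophages, again without overlap of the quartile ranges. All 35 genes together made up similar shares, 1.75% and 2.04% of the pooled UMIs of osteoclast-like cells and 2.06% and 1.94% of macrophages. Osteoclast-like cells are deeper, at median depths of 17946 and 12367 UMIs against 3860.5 and 5729. Among cells with 10000 to 20000 UMIs, the pooled V-ATPase share was 0.931% and 1.15% in osteoclast-like cells and 0.311% and 0.313% in macrophages, and the cathepsin share 0.250% and 0.247% against 0.838% and 0.708%. With each cell thinned to 1000 UMIs, Atp6v0b was detected in 78.3% and 85.4% of osteoclast-like cells (97.8% and 99.4% unthinned), in 43.5% and 47.3% of macrophages (76.1% and 90.5%) and in 15.0% and 18.9% of T cells (41.5% and 42.1%). Ctsc was detected in 8.70% and 3.21% of thinned osteoclast-like cells (37.0% and 29.4% unthinned), 59.0% and 74.3% of macrophages (82.3% and 96.2%) and 3.94% and 9.06% of T cells (19.3% and 19.2%), the last with median depths of 2585 and 2396 UMIs. The level of Ctsc in osteoclast-like cells was 2.76% and 2.07% of that in macrophages, and the level of C1qb 0.610% and 0.394%. The C1qb level may run low, since osteoclast-like cells that met the C1qa rule were left out. Thinning left out 108 and 42 macrophages, 8 and 7 T cells and 0 and 3 osteoclast-like cells.

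**Figure D3:**
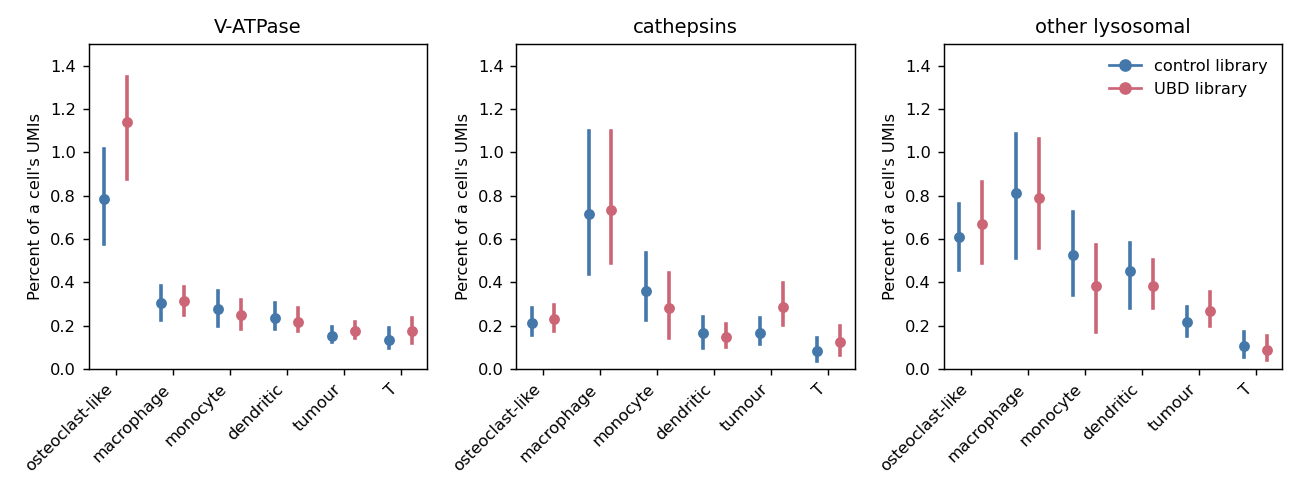
Percent of a cell's UMIs that came from the 16 V-ATPase genes, the 7 cathepsins and the 12 other lysosomal genes, by class and library. Points are medians over cells and bars run from the first to the third quartile. V-ATPase shares peak in osteoclast-like cells (0.784% and 1.14%) and cathepsin shares in macrophages (0.716% and 0.736%), and the class marked tumour is the Cdkn2a class.

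Within the osteoclast-like class the summed share of the pump genes moved with the class markers. When its cells were split into 3 equal groups by Acp5 and Ctsk together, the pooled V-ATPase share was 0.557%, 0.800% and 1.16% (control) and 0.780%, 1.18% and 1.41% (UBD), from the lowest group to the highest. Other lysosomal genes were higher along with it, at 0.443% in the lowest and 0.848% in the highest control group and 0.444% and 0.941% in the UBD groups. Cathepsins were at 0.178%, 0.177% and 0.271% and at 0.179%, 0.239% and 0.314%. The lowest control group was shallower, with a median of 6847 UMIs against 20423 in the highest, while the UBD groups had 12118 and 12235.5. Over single control cells of the class, depth had a Spearman rho of 0.45 with the V-ATPase share and -0.25 with the cathepsin share. Over UBD cells these were 0.02 and 0.01. The part of depth in the control values was not tested. Atp6v1b2 was 492, 768 and 1080.3 CPM across the UBD groups and Lgmn 81.6, 83.3 and 87.0 CPM. Tcirg1 was 258, 430 and 629 CPM there and Ctsb 329, 432 and 526 CPM, while Ctsl fell, at 204, 171 and 145 CPM. Control Tcirg1 did not rise by steps, at 298, 293 and 606 CPM. Across single UBD osteoclast-like cells, all of 1 library, the V-ATPase and other lysosomal shares had a Spearman rho of 0.72 over 688 cells, and the V-ATPase and cathepsin shares 0.59. Over the 92 control cells these were 0.72 and 0.21. In macrophages the shares that went together were those of cathepsins and other lysosomal genes, at 0.76 over 1564 control and 0.76 over 1701 UBD cells, against 0.36 and 0.33 for V-ATPase and cathepsins. Shares of 1 cell have a common total, and these values are descriptions. A few cells met the marker rules of both classes, 16 control and 11 UBD cells, with V-ATPase at 0.548% and 0.592% and cathepsins at 0.478% and 0.477%, both between the values of the 2 classes.

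Over the 6 classes, 18 of the 35 genes had their highest level in osteoclast-like cells in both libraries, and 10 in macrophages. The 18 held 13 of the 16 V-ATPase genes, none of the cathepsins and 5 of the other lysosomal genes. The share of all genes with their highest level in each class was not counted, so these counts have no baseline. Neighbours in these orders were not always apart. Control Atp6v0d1, for one, was 133 CPM in macrophages and 125 CPM in monocytes, a ratio of 1.06 (0.960 to 1.17). Monocytes, the precursors of both, had lower cathepsin levels than macrophages. All 7 cathepsins (control) and 6 (UBD) were at least 1.5-fold lower in monocytes, where 27.1% and 22.2% of all genes were lower and 13.5% and 23.4% higher. None of the 35 was 1.5-fold higher. V-ATPase genes differed less, with 2 and 5 of 16 lower. Pooled cathepsin shares were 0.421% and 0.319% in monocytes against 0.862% and 0.808% in macrophages, and V-ATPase shares 0.285% and 0.249% against 0.315% and 0.322%. The 806 control cells that met only the C1qa and Ly6c2 rules lay between in cathepsins, at 0.661%, and had the V-ATPase share of macrophages, 0.315%.

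Cdkn2a cells had less of nearly all 35 genes than macrophages. In the control library 29 of the 35 genes were at least 1.5-fold higher in macrophages and 1, Cd63, lower, and in the UBD library 27 higher and none lower. Of all genes 27.6% and 24.1% were higher and 40.8% and 43.6% lower. Osteoclast-like cells exceeded Cdkn2a cells by that measure in 15 of 16 V-ATPase genes in each library, the exception being Atp6v0a1, and in 28 and 26 of the 35 genes in all, where 34.0% and 24.3% of all genes were higher and 34.1% and 43.4% lower. Between macrophages and Cdkn2a cells, Atp6v1g1, Atp6v1h, Atp6ap2, Ctsl and Lamp2 were within 1.5-fold in both libraries. Atp6ap2 was 154 and 183 CPM in Cdkn2a cells and 151 and 146 CPM in macrophages. Ctsl was 1019 and 1993 CPM in Cdkn2a cells, above the 166 and 174 CPM of osteoclast-like cells in both libraries and above the 1717 CPM of macrophages in the UBD library. Cd63 was 911 and 1100.5 CPM. At the other end, Cd68 was 8.99 and 5.05 CPM in Cdkn2a cells and Ctsh 6.28 and 10.4 CPM, which is 1.34% and 0.935% of the macrophage level for Cd68 and 1.14% and 2.14% for Ctsh, beside the 0.407% and 0.254% of the free RNA gauge.

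Between the libraries, the highest ratio among the 35 genes in Cdkn2a cells was that of Ctsl. It went from 1019 CPM (control) to 1993 CPM (UBD), 1.96-fold higher (1.94 to 1.97). Ctsd was 137 and 228 CPM, 1.66-fold higher (1.63 to 1.69). All 7 cathepsins had ratios above 1, from 1.17-fold for Ctsc to that of Ctsl, and 3, Ctsd, Ctsh and Ctsl, passed 1.5-fold. Of the 35 genes 5 were at least 1.5-fold higher and 2 lower, where 8.88% of all genes were higher and 21.2% lower. The other genes above 1.5-fold were Hexa, at 36.9 and 67.1 CPM, the pump accessory gene Atp6ap1, at 36.7 and 64.9 CPM, and Ctsh. Those below were Cd68 and Tcirg1, the latter just past 1.5-fold, at 26.2 and 17.5 CPM, a ratio of 0.666 (0.633 to 0.701). Ctsh and Cd68 were at 10.4 CPM or less, and Ctsh turned lower when cells were weighted equally or held to 3000 to 10000 UMIs. The median log2 ratio of the 35 genes was 0.24, against -0.05 over all genes, with 29 of 35 above 1. Gm42418 stood at 3025 CPM (control) and 1034 CPM (UBD) in Cdkn2a cells. Without cells over 1% Gm42418, which left 3772 and 7972 cells, none of the 35 genes was at least 1.5-fold lower. With totals without mitochondrial, ribosomal and Gm42418 UMIs 1 was lower. In both runs the number higher stayed within 1.5 times the 5 reported. Beyond these runs the part of Gm42418 in the ratios was not tested.

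The makeup of the Cdkn2a class differed between the libraries, so the ratios were also taken within subsets by marker UMIs, which overlap and were chosen after seeing the data. Cells with at least 2 UMIs of H19, a noncoding RNA, were 4.69% of control and 19.8% of UBD Cdkn2a cells, those with Krt18, a keratin, 3.09% and 12.3%. Those with as many of Serpinb2 and Il11 were 16.96% and 2.10% and those with at least 4 of Ifit1 and Ifit3, interferon-stimulated genes, 25.6% and 2.58%. Ctsl was higher in the UBD library in all 4 subsets and in the cells in none of them, from 1.52-fold (1.48 to 1.55, Serpinb2 and Il11) to 2.15-fold (2.10 to 2.20, H19). Atp6ap1 was higher in all 5, from 1.45-fold to 1.94-fold, and Hexa from 1.32-fold to 2.33-fold. Ctsd ranged from 1.22-fold in the Krt18 subset to 2.27-fold in the H19 subset. The level also moved with depth in the control library. Control Ctsl was 593 CPM in cells of 3000 to 10000 UMIs, 693 CPM at 10000 to 20000 and 1059 CPM at 20000 to 40000, against 1678, 1979 and 2058 CPM in the UBD library, which exceeds the control in each range. Cd63 was within 1.5-fold in the whole class, but at 3000 to 10000 UMIs it was 593 and 1468 CPM and at 20000 to 40000 UMIs 1007 and 1003 CPM. In cells of 3000 to 10000 UMIs alone, 12 of the 35 genes were at least 1.5-fold higher and 5 lower, where 15.6% of all genes were higher and 32.4% lower.

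**Figure D4:**
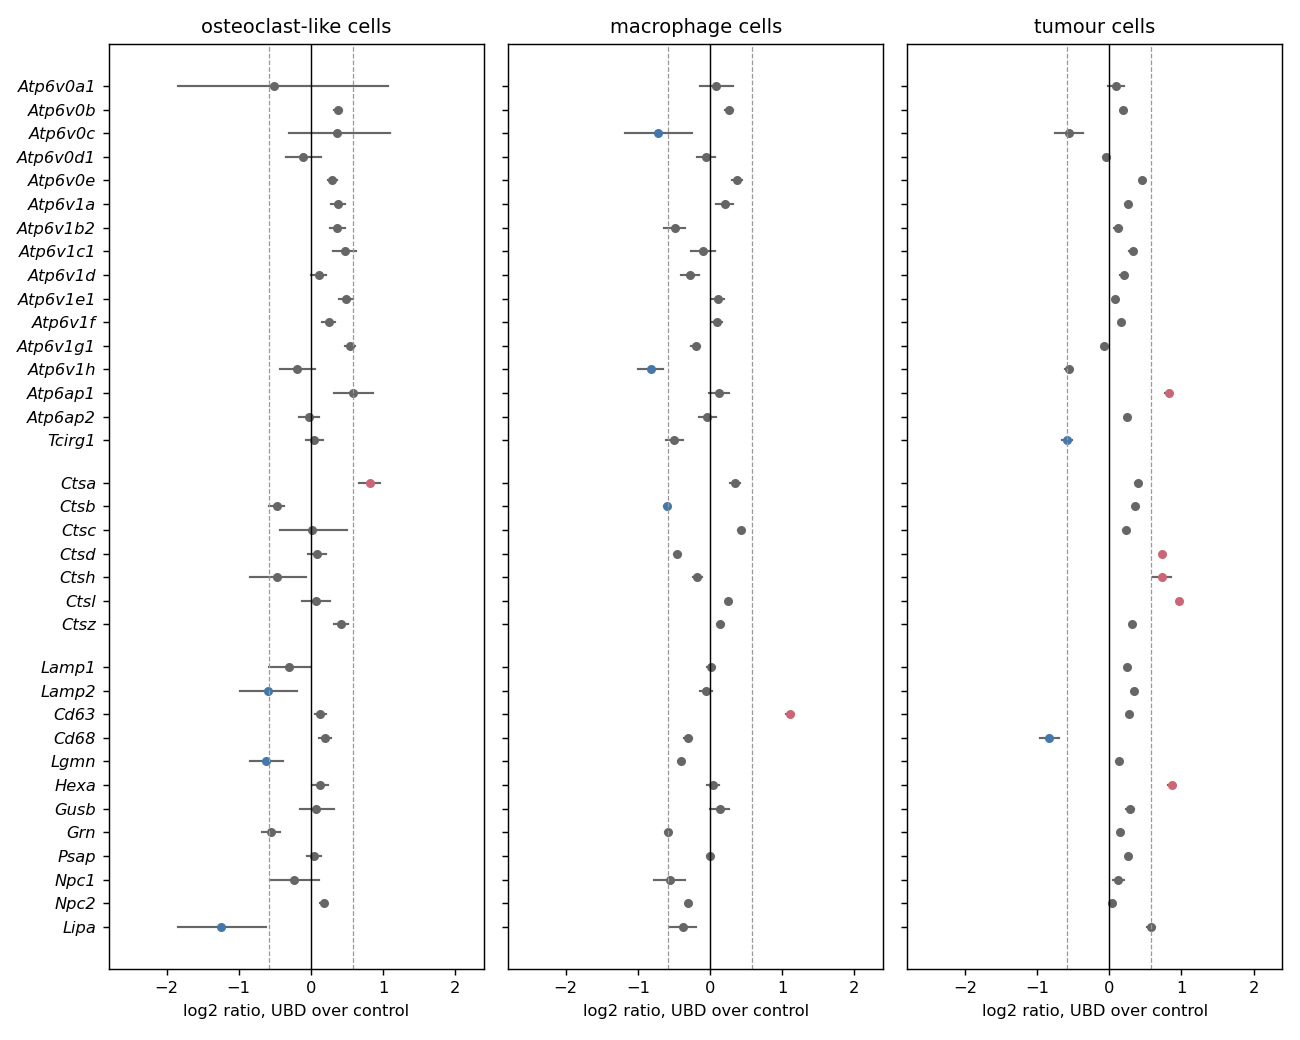
Log2 ratio of CPM, UBD over control library, for each of the 35 genes in osteoclast-like, macrophage and Cdkn2a (tumour) cells. Bars are 95% intervals for counting error, dashed lines mark 1.5-fold, and red and blue points lie above and below it. Most points fall within the lines, with Cd63 at 1.11 in macrophages and Ctsl at 0.97 in Cdkn2a cells the highest of each panel and Ctsa at 0.81 that of osteoclast-like cells.

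In macrophages few of the genes differed between the libraries. Cd63, of late endosomes and exosomes, was 514 CPM in control and 1110.0 CPM in UBD cells, 2.16-fold higher (2.08 to 2.24), and was the only one of the 35 above 1.5-fold. A pseudogene by its name, Cd63-ps, may share its reads. Below were Ctsb, at 2960.4 and 1948 CPM, 1.52-fold lower (1.49 to 1.55), Atp6v1h, at 87.0 and 49.3 CPM, 1.77-fold lower (1.57 to 1.99), and the uncertain Atp6v0c. Of all genes 8.48% were higher and 21.2% lower in these cells. Within macrophages with H2-Ab1, of MHC class II, at 1000 CPM or more Cd63 was 2.66-fold higher (2.45 to 2.89), and in the remainder 2.12-fold (2.03 to 2.22). Split by Spp1 at the same level it was 2.10-fold and 2.08-fold higher. Ctsb was 1.53-fold lower in the first of these 4 subsets and 1.34-fold, 1.21-fold and 1.72-fold lower in the others. Ctsl was 1439.9 and 1717 CPM in all macrophages, within 1.5-fold, but its level differed with that of H2-Ab1. At 1000 CPM or more of H2-Ab1, which 25.4% of control and 50.6% of UBD macrophages had, Ctsl was 638 and 1125 CPM, 1.76-fold higher (1.65 to 1.88), and below it 1693 and 2267 CPM, 1.34-fold higher (1.30 to 1.38). By Spp1 it was 1.37-fold higher at 1000 CPM or more and 1.23-fold lower under it. Of the other pathway genes, Gla, a galactosidase, was 124 and 44.6 CPM and Pla2g15, a lysosomal phospholipase, 64.9 and 33.9 CPM, while Gm2a, the ganglioside activator, was 196 and 331 CPM.

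In osteoclast-like cells 1 of the 35 genes was at least 1.5-fold higher in the UBD library and 3 lower, where 11.1% of all genes were higher and 14.6% lower. None of the V-ATPase genes passed 1.5-fold, though 12 of 16 ratios were above 1. Their median log2 ratio was 0.33 against -0.04 over all genes. These are ratios of pooled UMIs, and with cells weighted equally more of the 35 genes passed 1.5-fold in either direction. The class markers differed too. Acp5 and Ctsk together had medians of 4911, 9977 and 19787 CPM in the 3 control groups and 8430, 18382 and 29384 CPM in the UBD groups. The part of this difference was not tested. Atp6v0b was 1736 and 2257 CPM, 1.30-fold higher (1.25 to 1.35), and Atp6v1g1 1237 and 1794 CPM. Tcirg1 was nearly level at 421 and 435 CPM. Ctsa, which protects lysosomal sialidase and galactosidase from breakdown, was 263 and 462 CPM, 1.76-fold higher (1.59 to 1.95). Its partner Glb1, among the other pathway genes, was 73.0 and 123 CPM. Lower were Lgmn, 1.53-fold (1.30 to 1.79), and, each under 50 CPM, Lamp2 and Lipa. Apoe was 1197 CPM in control and 349 CPM in UBD cells of this class. It rose across the groups by Acp5 and Ctsk, at 589, 1078 and 1674 CPM (control) and 207, 354 and 498 CPM (UBD). C1qb did not, at 44.1, 11.2 and 30.4 CPM and 23.2, 16.5 and 10.3 CPM. The part of macrophage transcripts in the lower genes was not tested. The macrophage list of 10 markers, Apoe among them, summed to 1525 and 716 CPM, with 9 and 10 detected.

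The remaining classes held few cells in 1 or both libraries. Among monocytes 1 of 35 genes was at least 1.5-fold higher in the UBD library and 10 lower, where 21.7% and 23.6% of all genes were. The lower ones with the most UMIs were Npc2, at 1941 and 993 CPM, Ctsb, at 1136 and 657 CPM, Lgmn, at 596 and 258 CPM, and Grn, at 481 and 275 CPM. Without cells that had a T or NK cell marker, which left 1710 and 105 cells, 2 were higher and 8 lower. Among T cells 7 of 33 were higher and 4 lower, where 14.3% and 15.4% of all genes were. Ctsd, at 308 and 599.9 CPM, was 1.95-fold higher (1.64 to 2.32), and Lgmn, at 120.2 and 47.1 CPM, was lower. Col3a1 was 164 and 985 CPM in T cells, and the part of transcripts of other cells was not tested. Among the 53 and 41 dendritic cells 6 of 29 genes with enough UMIs were higher and 8 lower, where 13.6% and 23.7% of all genes were, and Cd63 was 965 and 309 CPM there. Of the 35 genes, 6 had under 20 summed UMIs in dendritic cells and 2 in T cells.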

How the data were processed

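The 2 libraries were made with droplet single-cell chemistry that tags transcript 3' ends. The authors deposited matrices of UMI counts, with no normalization, as whole numbers per gene and barcode. Cell Ranger, STAR and the build mm10 are named in the submitters' processing notes, and software version 3.1.0 per the file headers. Aligner settings and the annotation are not stated in those sources. The counts tables held 14890 control and 14158 UBD barcodes.

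Barcodes under 200 genes or 500 UMIs, or over 20% mitochondrial UMIs, were dropped, which left 14353 and 13619. Scrublet in scanpy 1.11.5 (expected rate 0.1) marked 530 and 562 doublets, which were removed. Kept cells had medians of 4334 and 12186 UMIs. A class needed at least 2 UMIs and 300 CPM of its marker in the cell (1 UMI for Flt3 and Cd3e), and only cells of exactly 1 class were used. These thresholds were set on the markers alone. The 35 genes and all gene lists were chosen with earlier results of these data known.

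UMIs were summed per class and library. Levels have exact Poisson and ratios exact conditional binomial 95% intervals, and shares Clopper-Pearson intervals (Python 3.11.15, scipy 1.17.1). A gene was compared with at least 20 summed UMIs, and 1.5-fold counted as different. PCR copies were collapsed by UMI. The scripts were tested on simulated data. In each class, the genes named within a list were up to 5 with the largest and 5 with the smallest ratios among those at 50 CPM or more in 1 library, and the 3 with the highest levels. Of other pathway genes up to 4 per direction were named. All other genes named were chosen after their values were seen. Gene positions are from GENCODE vM21 on GRCm38, to which 30934 of 31053 identifiers matched, and promoters from RefSeq on GRCm38.p6. Alternatives were other cell, doublet, class, scaling, count and fold rules.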

Additional observations from a re-analysis of the deposited data

Results flagged for a closer look

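For 3 genes the libraries differed in opposite directions in different classes by at least 1.5-fold, with intervals of the ratios that excluded 1. With 1 library per group these differences between classes were not tested. Ctsh had a log2 ratio, UBD over control, of 0.73 in Cdkn2a cells and 1.32 in T cells, where its level was low, and of -0.74 in dendritic cells, where it was 582 and 347 CPM. Cd63 had 1.11 in macrophages and -1.64 in dendritic cells. Lipa had 0.86 in monocytes and -1.25 in osteoclast-like cells, at 42.2 CPM or less in each of these.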

How the results depend on the processing

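No paired analysis was possible because each group had 1 library. Every count of the osteoclast-like against macrophage comparison stayed within 1.5 times the reported one under each alternative run, and each of its 27 control and 28 UBD calls kept its sign. Of 186 counts under alternatives 138 were within 1.5 times the reported one and 48 moved. Of 81 other values 76 moved, most of them shares of cells with a UMI when cells were thinned to 500 or 2000 UMIs or not thinned, and the remainder ratios of Ctsl and Cd63 within subsets. The counts that moved were those of genes at least 1.5-fold higher or lower in the UBD library. Apart from Cdkn2a cells of 3000 to 10000 UMIs, the share of all genes under each alternative is not given here. The counts therefore show only how the calls depend on the rules. Under the stricter cell filter 5 genes were lower in macrophages and 1 in Cdkn2a cells. With doublets kept 2 were higher in osteoclast-like cells, 2 higher in monocytes and 1 lower in Cdkn2a cells, and under the stricter class rule 2, 3 and 1. In cells without a UMI of another class's marker, 3 were higher and 1 lower in osteoclast-like cells, 5 lower in macrophages, 2 higher and 6 lower in monocytes and 2 higher in T cells. With cells weighted equally 6 were higher and 6 lower in osteoclast-like cells, 2 higher in macrophages and 4 lower in Cdkn2a cells. With totals without mitochondrial, ribosomal and Gm42418 UMIs, and with median of ratios scaling, 2 were higher and 1 lower in osteoclast-like cells and 1 lower in Cdkn2a cells. With at least 200 summed UMIs 0 were higher in monocytes, 1 higher and 2 lower in dendritic cells and 1 higher and 0 lower in T cells. At 2-fold 0 were higher and 1 lower in osteoclast-like cells, 0 lower in macrophages, 0 higher and 3 lower in monocytes, 1 higher and 3 lower in dendritic cells, 0 either way in Cdkn2a cells and 1 higher and 2 lower in T cells. Without cells over 1% Gm42418, 1 was lower in osteoclast-like and 0 in Cdkn2a cells. In cells of 3000 to 10000 UMIs, chosen after seeing the data, 6 were lower in macrophages, 2 higher in monocytes, 12 higher and 5 lower in Cdkn2a cells and 2 lower in T cells. Without cells with a T or NK marker UMI, also chosen after, 2 were higher in monocytes. Fewer genes or cells enter the last alternatives by construction, and otherwise the cause was not tested. Between libraries, a sign turned for Atp6v0c in monocytes, Ctsh in Cdkn2a cells and Ctsa, Ctsc and Lamp2 in T cells. Dendritic cells were too few under both class alternatives, as were control osteoclast-like cells of 3000 to 10000 UMIs.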
